A study of Mus musculus with 4 samples.

Results

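MHC class I transcripts were followed in mouse T helper 2 (Th2) cells given dopamine. The members are the H2-K, H2-D, H2-Q, H2-T and H2-M genes whose names carry a digit, H2-Bl, and the genes B2m, Tap1, Tap2, Tapbp, Tapbpl, Erap1 and Nlrc5, chosen by name. There are 27 of them among the 26207 genes of the deposited table: 2 classical class I genes (H2-K1 and H2-D1), 18 non-classical ones and 7 genes of peptide loading and regulation. H2-L, a further classical gene on the list of names, was not analysed here.

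The libraries were 2 of Th2 cells treated with 10 µM dopamine and 2 of Th2 cells given phosphate-buffered saline (PBS), all with spleen as the stated source. Dopamine is a catecholamine of sympathetic nerves, and the study's title concerns such nerves in the lung and resident memory Th2 cells. The sources used here give no genotype, strain, sex or age of the mice and no length of treatment. Nor do they say that a group's libraries had separate animals or cultures behind them, so the p-values rest on library-to-library spread that may be technical. Between 5717408 (PBS A) and 14167357 (dopamine A) reads per library were assigned to genes. A and B only name the libraries of a group.

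A class I molecule is a heavy chain, encoded by an H2 gene, held together with beta-2 microglobulin and a short peptide. Peptides made by the proteasome enter the endoplasmic reticulum (ER) through the TAP transporter, are trimmed there by ERAP1 and are fitted into the heavy chain with the help of tapasin. Classical molecules present peptides to CD8 T cells on nearly all cells. Non-classical ones have narrower roles, among them display of particular peptides to natural killer (NK) cells and unconventional T cells. NLRC5 is the transactivator of class I genes in lymphocytes and acts at a promoter module with S, X and Y boxes, beside an NF-kB element and an interferon-stimulated response element.

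H2-Q2 showed the greatest change among the 27 genes, and its promoter is set beside those of H2-Q4, H2-K1 and H2-D1. Exact strings taken from these elements are marked in each. The stretches come from RefSeq on GRCm38.p6. They run 5′ to 3′ on the gene's strand around the first ATTGG, at chr17:35342111-35342300 (+) for H2-Q2, chr17:35379423-35379612 (+) for H2-Q4, chr17:34000298-34000478 (-) for H2-K1 and chr17:35262903-35263092 (+) for H2-D1. Capitals mark the NF-kB element (the first capital run in H2-K1 and H2-D1), TTTCACTT (core of the interferon element), TGAC where ATTGG follows after 20 or 21 bases (spacing of the X2 and Y boxes), ATTGG itself and TATAAA.
H2-Q2: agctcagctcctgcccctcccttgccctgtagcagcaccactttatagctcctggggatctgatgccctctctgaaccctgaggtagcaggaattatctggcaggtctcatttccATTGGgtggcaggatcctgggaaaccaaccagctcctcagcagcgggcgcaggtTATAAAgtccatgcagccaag
H2-Q4: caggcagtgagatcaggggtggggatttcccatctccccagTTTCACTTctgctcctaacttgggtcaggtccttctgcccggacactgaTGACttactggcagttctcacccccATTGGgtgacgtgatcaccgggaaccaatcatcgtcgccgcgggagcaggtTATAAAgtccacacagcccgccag
H2-K1: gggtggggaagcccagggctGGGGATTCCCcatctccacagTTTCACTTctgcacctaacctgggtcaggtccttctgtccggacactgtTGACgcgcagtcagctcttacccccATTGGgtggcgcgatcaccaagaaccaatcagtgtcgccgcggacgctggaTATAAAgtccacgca
H2-D1: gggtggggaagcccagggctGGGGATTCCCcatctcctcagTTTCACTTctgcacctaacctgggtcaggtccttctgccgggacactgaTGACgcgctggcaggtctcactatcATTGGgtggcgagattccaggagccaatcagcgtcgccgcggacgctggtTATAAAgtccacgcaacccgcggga

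Both classical promoters hold all of these strings. H2-Q4 holds all but the exact NF-kB string, and has the similar ggggatttccc, not searched for, at the matching place. H2-Q2 holds ATTGG and TATAAA alone. A promoter window of 250 bases before to 50 after the start was found for 18 of the 27 genes. Searched on both strands, the NF-kB string was in 4 of the 18 (H2-K1, H2-D1, H2-Q6 and H2-Q7), against 0.107% of 32851 RefSeq windows. TTTCACTT was in 10, against 1.6% of all windows, and the spaced TGAC and ATTGG pair, which overlaps the ATTGG string, was in 7, against 0.408%. ATTGG alone was in 14 (37.4% of all windows) and TATAAA in 9 (13.6%). The strings were chosen after the promoters had been read, a match is not a bound site, and a missing string says nothing of the factor.

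Values are the authors' normalized read counts, which are read counts divided by a size factor of each library. Each log2 fold change is the dopamine mean minus the PBS mean of log2(value + 1), printed with its standard error (SE). Adjusted p-values come from limma, by the Benjamini-Hochberg method over all 26207 genes, and the threshold was 0.05. Limma borrows most of each gene's variance from genes of like abundance (42.4 prior against 2 residual degrees of freedom). Abundant genes as a whole lay somewhat higher with dopamine in the authors' scaling. Their median log2 fold change (mean count of 100 or more) was 0.198, and 0.003 once the libraries were rescaled on them. Each change below is therefore given against that shift where the call depends on it.

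Of the 27 genes, 5 rose with dopamine and 6 fell, against 14.3% of all genes called higher and 7.00% called lower. Among abundant genes (a mean of at least 100) the shares were 39.1% higher and 7.90% lower, and 18 of the 27 genes are that abundant, among them H2-Q2 only through its PBS level. Classical genes were level or slightly higher: 1 of 2 rose and 0 fell, with a median log2 fold change of 0.15. Of the 18 non-classical genes 1 rose, 4 fell and 13 did not pass, with a median of -0.26. Of the loading and regulation genes 3 of 7 rose and 2 fell, with a median of 0.10. The median over all genes was -0.08. Other scalings shifted these counts: after rescaling on abundant genes 1 of the 27 was higher and 10 lower, against 6.89% and 12.1% of all genes, and edgeR on recovered reads called 3 higher and 11 lower, against 18.2% and 15.8%. Without PBS A 1 was higher, without dopamine B 2 were, and the lower count was 3 without dopamine A, 4 without PBS A and 2 without PBS B. With a library left out, the lone library of its group is assumed to vary like the other group.

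**Figure D1:**
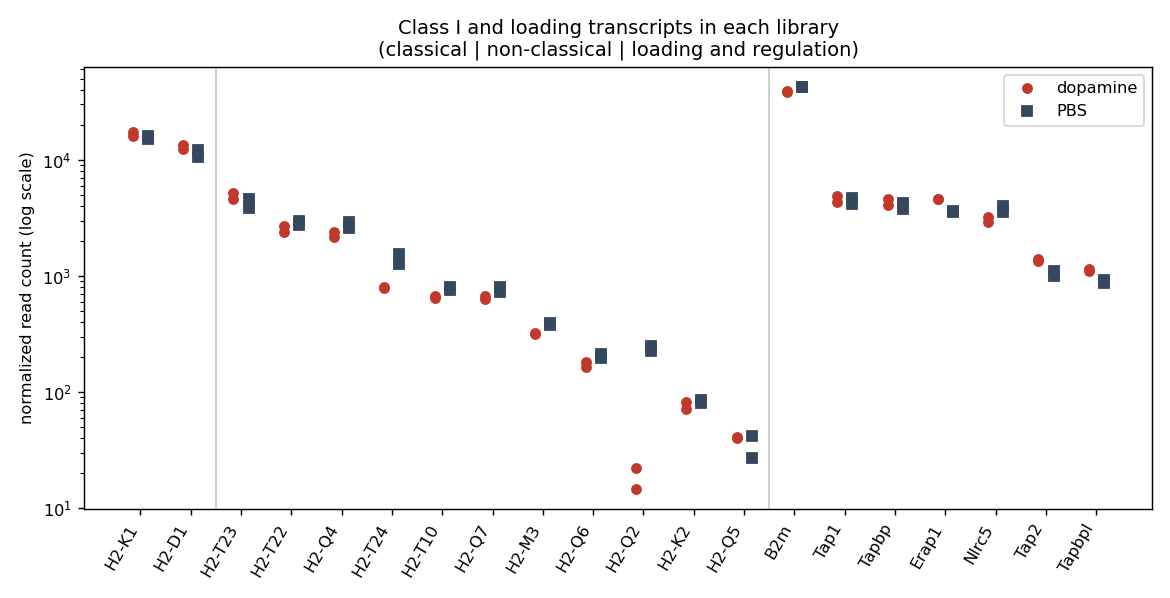
Normalized read count (log axis) of the 20 genes averaging 20 or more, in each library, with dopamine libraries as circles left of PBS libraries as squares. H2-Q2 is the gene with the widest gap, at 22.4 and 14.6 with dopamine and 228 and 248 with PBS, and B2m is the most abundant.

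The classical genes encode the main peptide-presenting molecules, H-2K and H-2D. H2-K1, on chromosome 17 from 33996017 to 34000347 (mm10), stood at 16048 and 17279 in the dopamine libraries, against 14979 and 16148 in the PBS libraries. The groups overlapped. Its log2 fold change was 0.10 (95% interval -0.01 to 0.21, adjusted p = 0.202), and -0.10 after rescaling on abundant genes.

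H2-D1, on chromosome 17 from 35262730 to 35267499, had 12303 and 13516 with dopamine, against 10525 and 12052 with PBS. Both dopamine libraries were above both PBS libraries, as for 28.5% of all genes and 60.8% of abundant ones. Its change of 0.20 (SE 0.06, adjusted p = 0.0127) on the log2 scale equals the shift of abundant genes, and none was left after rescaling on them (adjusted p = 0.999). The call also ended with edgeR on recovered reads (0.09), without dopamine B (0.13) and without PBS A (0.10), and the change was 0.29 without PBS B.

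Per kilobase of merged exon length, the classical genes were the most abundant heavy chains in both groups. H2-K1 averaged 5672 ± 296 normalized counts per kb with dopamine and 5297 ± 281 with PBS, and H2-D1 averaged 5006 ± 333 with dopamine and 4377 ± 419 with PBS (SD, n = 2 each). H2-T23 came next at 1691 ± 132 with dopamine and 1462 ± 176 with PBS. H2-Q4 and H2-T22 followed in both groups, at 875 ± 61.1 and 744 ± 68.5 with dopamine. The order of the 9 most abundant heavy chain genes was the same in both groups. H2-Q2 was in place 13 of 20 with dopamine, at 8.47 ± 2.53 per kb, and in place 10 with PBS, at 109 ± 6.68, next to H2-Q6 there (98.0 ± 4.89).

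Among the non-classical genes, H2-Q2 lies on chromosome 17 from 35342242 to 35346762, at the end of the Q region near H2-D1. It had 22.4 and 14.6 normalized counts in the dopamine libraries, against 228 and 248 in the PBS libraries. These values rest on 29 and 15 reads with dopamine, against 134 and 324 reads with PBS. The groups are far apart, and the mean was 12.9-fold lower with dopamine. Its log2 fold change was -3.65 (SE 0.21, adjusted p = 2.26e-18), the lowest of all genes in the table, which 14 of 14 alternative fits also called (-3.94 to -3.35). With dopamine its reads were 0.0444 ± 0.0158% of the summed counts of the 20 H2 genes, and 0.586 ± 0.00938% with PBS.

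H2-T24, on chromosome 17 from 36005695 to 36020560, had the next largest change among the called genes. It stood at 789 and 802 with dopamine, against 1262 and 1534 with PBS, so the groups were clearly apart. The log2 fold change was -0.81 (SE 0.09, adjusted p = 6.1e-10), also called by each of the 14 alternatives (-1.0 to -0.67).

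H2-Q4 fell to 2158 and 2383 with dopamine, against 2597 and 2941 with PBS. Its log2 fold change was -0.29 (SE 0.07, adjusted p = 0.00263), with both dopamine libraries below both PBS libraries. The call ended without dopamine A (-0.21) or PBS B (-0.20). H2-T10, annotated as a polymorphic pseudogene in this build, had 642 and 667 with dopamine, against 759 and 803 with PBS. The groups did not overlap, and the log2 fold change was -0.25 (SE 0.09, adjusted p = 0.0379). It did not pass with any one library left out, at values about as large: -0.23 without dopamine A, -0.28 without dopamine B, -0.29 without PBS A and -0.21 without PBS B.

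H2-T23, which encodes Qa-1, the ligand that shows signal peptides of other class I chains to the NK receptor CD94/NKG2A, was the only non-classical gene called higher. It stood at 4616 and 5155 with dopamine, against 3866 and 4584 with PBS, close together at the inner libraries. Its log2 fold change was 0.21 (SE 0.07, adjusted p = 0.021), and 0.02 after rescaling on abundant genes (adjusted p = 0.864). H2-T23 did not pass with edgeR (0.10, adjusted p = 0.244) or in the authors' DESeq2 values (adjusted p = 0.0765). In limma with a pseudocount of 0.1 it did not pass either (adjusted p = 0.0541). The call ended without dopamine B (0.13) or PBS A (0.09), and without PBS B the value was 0.34.

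Other non-classical genes leaned lower without passing the threshold. H2-T22, whose product binds some gamma-delta T cell receptors, had 2375 and 2706 with dopamine, against 2737 and 2946 with PBS (log2 fold change -0.16, adjusted p = 0.0975). H2-Q7, which encodes Qa-2, had 633 and 674 with dopamine, against 732 and 803 with PBS (-0.23, adjusted p = 0.0676). H2-M3, whose product presents N-formylated peptides, had 315 and 322 with dopamine, against 375 and 395 with PBS (-0.27, adjusted p = 0.0713). In these 3 genes the dopamine libraries lay below the PBS libraries, and each passed as lower after rescaling on abundant genes (-0.36, -0.43 and -0.47) and with edgeR (-0.27, -0.34 and -0.38). H2-T22 also passed without dopamine B (-0.26).

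H2-Q6 had 181 and 163 with dopamine, against 197 and 211 with PBS (-0.25, adjusted p = 0.21). It too passed as lower after rescaling on abundant genes (-0.44) and with edgeR (-0.35). H2-K2, a transcribed pseudogene, had 81.8 and 70.9 with dopamine, against 84.9 and 79.7 with PBS (-0.11, adjusted p = 0.728). The polymorphic pseudogene H2-Q5 had 40.1 and 40.8 with dopamine, against 27.2 and 42.1 with PBS (0.25, adjusted p = 0.556). Groups overlapped in H2-K2 and H2-Q5 and not in H2-Q6. Of the 18 non-classical genes, 11 had both dopamine libraries below both PBS libraries, against 30.4% of all genes and 15.4% of abundant ones. The 11 non-classical genes averaging 20 or more held 8 of these, and the 7 scarcer ones held 3. Such an order is common in scarce genes: 5724 of all 14596 genes averaging under 20 had it. The share of abundant genes is therefore no like comparison for those 7.

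The remaining 7 non-classical genes, H2-Q10, H2-M2, H2-M5, H2-Bl, H2-T3, H2-M10.3 and H2-Q1, were near the limit of detection. They had 1.54 to 7.77 normalized counts with dopamine and 1.70 to 13.02 with PBS, which is 2 to 8 reads and 1 to 17 reads per library. These include genes known for other tissues, such as H2-Q10 of the liver, H2-T3 of the gut epithelium and the H2-M10 family of vomeronasal neurons. None passed the threshold in limma, and 1 (H2-T3) was below 0.05 without adjustment. H2-T3 was at 2.31 and 1.94 with dopamine and 8.49 and 8.43 with PBS, and edgeR called it lower (log2 fold change -2.01, adjusted p = 0.0177), as did limma-voom (-1.91). For the other 6, differences were not detectable at this depth. Genes of that abundance were lower in general, with a median log2 fold change of -0.52 over the 14596 genes with a mean under 20.

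**Figure D2:**
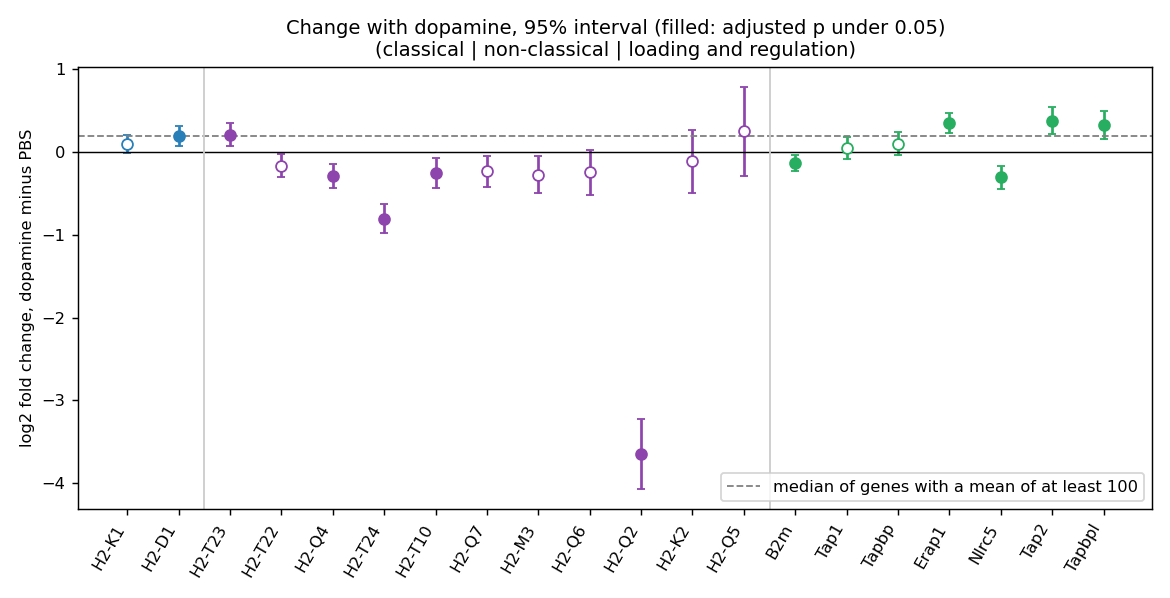
Log2 fold change, dopamine minus PBS, with its 95% interval for the 20 genes with a mean of at least 20; filled points passed an adjusted p of 0.05, and the dashed line marks the median of abundant genes (0.198). H2-Q2 (-3.65) and H2-T24 (-0.81) stand below the rest, and Erap1, Tap2 and Tapbpl are the called genes above the dashed line by the widest margin.

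A comparison within each library does not depend on the scaling between libraries. The 18 non-classical genes together made up 29.5% and 29.7% of the summed H2 class I counts in the dopamine libraries, against 33.6% and 34.2% in the PBS libraries. The groups did not overlap, and each varied by less than 1 percentage point between its libraries. Per kilobase, the shares were 29.2% and 29.3% with dopamine and 33.6% and 34.3% with PBS. Summed classical counts were 28351 and 30795 with dopamine, against 25504 and 28199 with PBS. Summed non-classical counts were 11876 and 13034 with dopamine, against 12903 and 14644 with PBS. The classical sums nearly met between groups and the non-classical sums overlapped, while the shares were apart. The genes were chosen with results known, so no p is given for these sums.

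**Figure D3:**
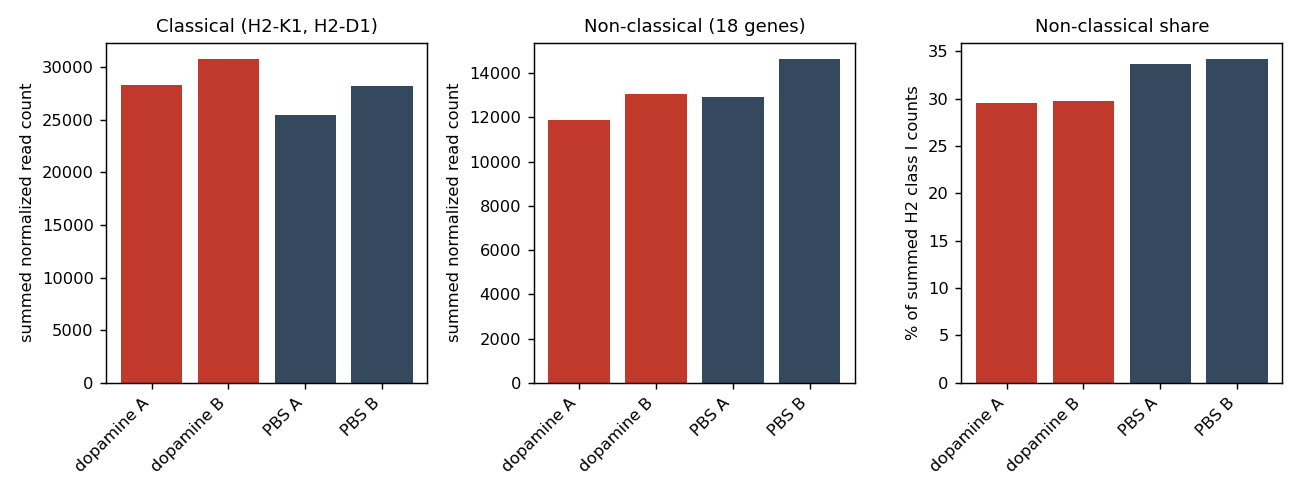
Summed normalized read counts of the 2 classical and the 18 non-classical genes, and the non-classical share of their total in percent, one bar per library with dopamine left of PBS. The share is 29.5% and 29.7% with dopamine and 33.6% and 34.2% with PBS.

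The light chain transcript was slightly lower. B2m, which encodes beta-2 microglobulin, had 38174 and 39071 with dopamine, against 42600 and 42155 with PBS. Both dopamine libraries were lower, and the log2 fold change was -0.13 (SE 0.05, adjusted p = 0.0338). The call held after rescaling on abundant genes (-0.33) and with edgeR (-0.24), and ended when any library was left out, with -0.12 without dopamine A, -0.15 without dopamine B, -0.13 without PBS A and -0.14 without PBS B. B2m did not pass in the authors' DESeq2 values (adjusted p = 0.0662). In limma on only the genes with a mean of at least 20 it did not pass either (adjusted p = 0.1105). Per kilobase, B2m was 3.07 and 2.89 times the summed H2 genes in the dopamine libraries, against 3.58 and 3.17 times in the PBS libraries.

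The transporter subunits differed from each other. Tap2 had 1332 and 1396 with dopamine, against 995 and 1101 with PBS. Every dopamine value was above every PBS value, and the log2 fold change was 0.38 (SE 0.08, adjusted p = 3.45e-04). Tap1, the partner subunit, had 4298 and 4832 with dopamine, against 4187 and 4661 with PBS. Its groups overlapped (0.04, 95% interval -0.09 to 0.18, adjusted p = 0.68). The within-library ratio of Tap1 to Tap2 counts was 3.23 and 3.46 with dopamine and 4.21 and 4.23 with PBS. The Tap2 call ended after rescaling on abundant genes (0.19, adjusted p = 0.0634) and without PBS A (0.31).

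Of the tapasin pair, Tapbp, which encodes tapasin itself, had 4055 and 4614 with dopamine, against 3790 and 4279 with PBS, and the groups overlapped (0.10, adjusted p = 0.3). Tapbpl, which encodes the tapasin-related peptide editor TAPBPR, had 1094 and 1137 with dopamine, against 863 and 922 with PBS. It was higher in both dopamine libraries, by 0.32 on the log2 scale (SE 0.08, adjusted p = 0.0034). That call ended after rescaling on abundant genes (0.13), without dopamine B (0.29) and without PBS A (0.27).

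Erap1, the aminopeptidase that trims peptides to fit class I, had 4595 and 4635 with dopamine, against 3584 and 3651 with PBS. Libraries of a group lay close together and the groups did not overlap. Its log2 fold change was 0.35 (SE 0.06, adjusted p = 2.28e-05), which each of the 14 alternatives also called as higher (0.16 to 0.36). It lies on chromosome 13 from 74639568 to 74693201, outside the H2 region.

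Nlrc5, the class I transactivator, fell to 2885 and 3206 with dopamine, against 3520 and 4003 with PBS. Both dopamine libraries were below both PBS libraries, and the log2 fold change was -0.30 (SE 0.07, adjusted p = 8.23e-04). After rescaling on abundant genes it was -0.50, and without PBS B it was -0.21, which did not pass. The authors' deposited table gave an adjusted p below 0.05 to 7 of the 27 genes, and to 25.1% of its tested genes. These were H2-Q2, H2-T24, H2-Q4 and Nlrc5 as lower and Erap1, Tap2 and Tapbpl as higher, against 5.53% of its tested genes called lower and 19.6% called higher.

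**Figure D4:**
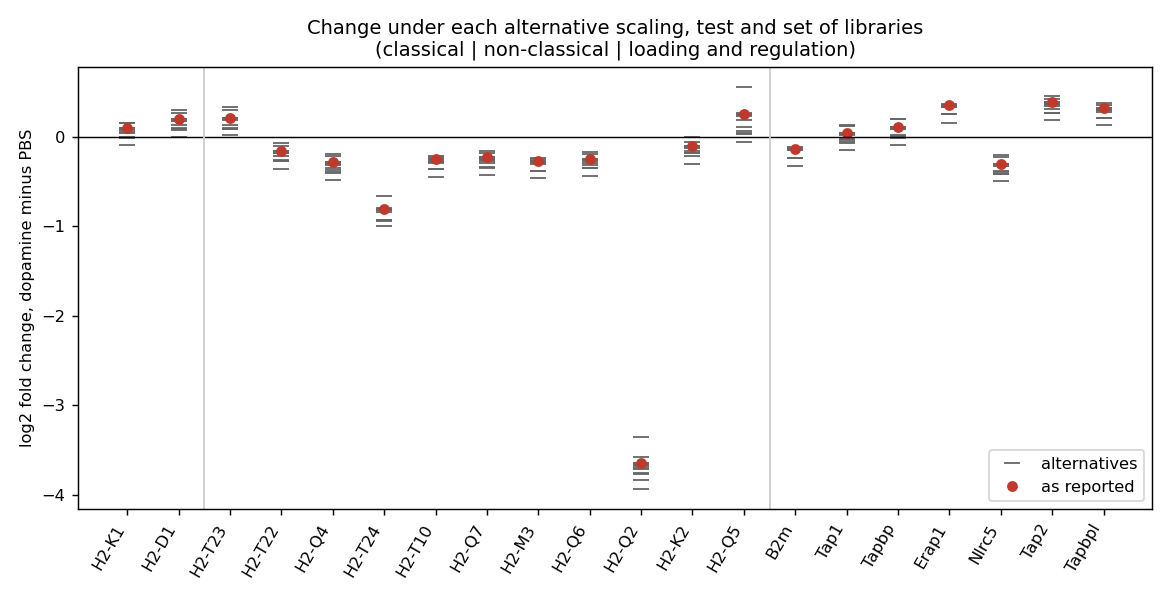
Log2 fold change, dopamine minus PBS, of the 20 genes with a mean of at least 20 as reported (circles) and under each alternative scaling, test and set of libraries (dashes). H2-Q2, H2-T24, H2-Q4, H2-T10, Nlrc5 and B2m are below 0 throughout, as are H2-T22, H2-Q7, H2-M3, H2-Q6 and H2-K2. Erap1, Tap2, Tapbpl and H2-T23 are above 0 throughout. H2-K1, H2-D1, H2-Q5, Tap1 and Tapbp lie on either side of 0, H2-D1 only just (lowest -0.00021).

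Some of these rows can share reads. Of the 50-base words in the longest annotated transcript, 35.8% in H2-T22, 31.6% in H2-T10, 32.0% in H2-Q6 and 28.4% in H2-Q7 also occur in another gene. So do 35.4% in H2-Q5 and 22.0% in H2-Q4. The figure was 8.11% in H2-K1, 14.3% in H2-D1, 8.74% in H2-Q2, 3.24% in H2-T24 and 0% in B2m, Erap1 and Nlrc5, so the split among the Q and T genes is the least certain. When H2-Q4, H2-Q5, H2-Q6, H2-Q7 and H2-Q10 were summed, an alternative added after the data were seen, the row fell (log2 fold change -0.27, SE 0.07, adjusted p = 0.00276). H2-T10 and H2-T22 summed gave -0.18 (SE 0.07, adjusted p = 0.0469). The strand setting of the counting is not given. Genes on the opposite strand overlap 27.1% of the exon length of H2-T10, 29.4% of H2-T22, 24.9% of Tapbp and 19.1% of H2-Q4. They overlap 11.5% of Erap1, 3.87% of Tap1, 0.918% of Nlrc5 and at least 14.1% of Tap2, and none of H2-Q2 and H2-T24.

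The other steps of the pathway were mostly higher. Of 27 genes for proteasome subunits, peptidases, ER chaperones and ER exit, 20 rose and 0 fell, while 39.1% of abundant genes were called higher. Their median log2 fold change was 0.29. The count was 12 without PBS A, 15 without dopamine A and 10, with 2 lower, after rescaling on abundant genes (median 0.09). The 3 constitutive catalytic proteasome subunits rose, with Psmb5 at 0.89, Psmb6 at 0.64 and Psmb7 at 0.53. Of the interferon-inducible immunoproteasome subunits, Psmb8 rose (0.28), while Psmb9 (0.15, adjusted p = 0.167) and Psmb10 (0.02, adjusted p = 0.902) did not pass. The activator subunits Psme1 (0.29) and Psme2 (0.29) rose, as did Psme3 (0.49). The Psmb8 and Psme1 calls ended without PBS A (0.20 and 0.23) and, with that of Psme2, after rescaling on abundant genes (0.08, 0.09 and 0.09).

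Chaperones that hold the heavy chain rose in the authors' scaling: Calr (calreticulin) by 0.53, Canx (calnexin) by 0.48 and Hspa5 (BiP) by 0.64 on the log2 scale. Pdia3, the oxidoreductase of the loading complex, had a log2 fold change of 0.19 (adjusted p = 0.0342), which after rescaling on abundant genes was -0.0046. Its call also ended with edgeR (0.08), without dopamine A (0.14) and without PBS A (0.11). Of 7 peptidases that shorten or destroy peptides, 5 rose, with Lap3 at 0.76, Thop1 at 0.74 and Tpp2 at 0.46, while Lnpep (-0.0085) and Npepps (-0.063) did not pass. After rescaling on abundant genes 3 of the 7 were higher and 2 lower.

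Regulators of class I transcription were mixed: 5 of the 20 listed genes rose and 2 fell. Over all genes the shares were 14.3% higher and 7.00% lower. Over abundant genes, as most of the 20 are, they were 39.1% and 7.90%. The regulators' median change on the log2 scale was 0.12, below the 0.198 of abundant genes. Without dopamine B 3 rose and 1 fell, without PBS A 3 rose and 3 fell, without PBS B 6 rose and 0 fell, and after rescaling on abundant genes 4 rose and 5 fell. Rescaled in this way, 6.89% of all genes were called higher and 12.1% lower. The largest change among the regulators was that of Irf8. It stood at 1626 and 1833 with dopamine, against 781 and 778 with PBS (log2 fold change 1.15, adjusted p = 3.07e-15). Nfkb1, which encodes an NF-kB subunit, rose by 0.47 and Ezh2 by 0.37. Ciita, the class II transactivator, rose by 0.94, a call that ended without dopamine B (0.86) or PBS A (0.63). Stat2, which encodes a factor of type I interferon signalling, had 798 and 912 with dopamine, against 1038 and 1324 with PBS (-0.46, adjusted p = 1.78e-04), and did not pass without PBS B (-0.28). Components of the factor that binds the X and Y boxes with NLRC5 did not pass, with Rfx5 at 0.11, Rfxap at 0.20, Rfxank at 0.03, Nfya at 0.27, Nfyb at 0.13 and Nfyc at -0.07 (adjusted p of at least 0.0891).

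Among 9 genes for interferons, their receptors and kinases, 2 rose and 1 fell, against 14.3% and 7.00% of all genes. Most of the 9 are abundant, and of abundant genes 39.1% were called higher and 7.90% lower. Ifng, which encodes interferon gamma, had 239 and 244 with dopamine, against 61.2 and 59.0 with PBS (log2 fold change 1.99, adjusted p = 9.63e-14). Ifngr1, the ligand-binding chain of its receptor, had 595 and 669 with dopamine, against 1018 and 1125 with PBS (-0.76, adjusted p = 6.04e-09). Ligand and receptor transcripts were thus clearly separated between the groups, in opposite directions. Ifngr2 (-0.02), Ifnar1 (-0.02) and Ifnar2 (0.01) did not pass, and Tyk2 (0.39) passed except after rescaling on abundant genes (0.20), without dopamine B (0.27) or PBS A (0.36).

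Class I genes are used by nearly all cells, and in bulk RNA fewer cells of a type and less RNA per cell cannot be told apart. Helper T cell markers were abundant in all libraries, with sums over 7 genes of 26142 and 26838 with dopamine, against 23670 and 25118 with PBS. Of these, Cd3d (0.25), Cd3g (0.24) and Trbc2 (0.24) rose and Trac fell (-0.27). Those rises lay near the 0.198 median of abundant genes. After rescaling on abundant genes, and with edgeR, 0 of the 7 were called higher and 1 lower. Markers of other cell types moved as well. Basophil and mast cell markers fell in 5 of 6 genes, with sums of 655 to 726 with dopamine and 1722 to 2052 with PBS. Platelet and red cell markers fell in 5 of 5 genes with values, with sums of 425 to 486 with dopamine and 1536 to 1807 with PBS. Monocyte, macrophage and neutrophil markers fell in 4 of 6, with sums of 107 to 113 with dopamine and 372 to 434 with PBS, and S100a8 and S100a9 were at 0 in dopamine B. B cell markers rose in 3 of 6, with sums of 358 to 363 with dopamine and 133 to 168 with PBS. Dendritic markers fell in 1 of 6, with sums of 102 to 116 with dopamine and 110 to 120 with PBS, NK markers rose in 1 of 3 (288 to 304 with dopamine, 143 to 163 with PBS), and epithelial ones fell in 1 of 3 (134 to 157 with dopamine, 106 to 149 with PBS). The NK sum is nearly all Eomes, which T cells also express, while Ncr1 averaged 2.90 with dopamine and 5.86 with PBS, and Klrb1c averaged 4.26 with dopamine and 11.0 with PBS. Siglech was at 0 in PBS A and Krt8 in dopamine B. The part of these cells in the class I results was not tested.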

How the data were processed

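Per the labels' protocols, total RNA of Th2 cells was sequenced after TruSeq Stranded mRNA library preparation. The submitters' processing notes name FastQC 0.11.2, TopHat2 2.0.13, HTSeq 0.6, DESeq2, R 3.6.2 and mm10. Annotation and strand setting of the counting: not given in the sources used here. The deposited table holds, per the file headers, the authors' log2 fold change, Wald score and p-values, and 4 library columns of a signal (read counts divided by a size factor, normalized counts). All values were whole multiples of 1 read within 0.01, so reads were recovered; a read was worth 1.70 normalized counts in PBS A and 0.766 to 0.971 elsewhere. Column numbers do not match the titles' replicates, so columns were matched to groups only, and 0 columns of other samples were present.

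R 4.3.3 with limma 3.58.1 fitted a trended variance to log2(value + 1), 2-sided and unfiltered, and was checked on simulated reads. The added 1 makes changes of scarce genes look smaller than they are. Alternatives were edgeR 4.0.16, DESeq2 1.42.0 and limma-voom on recovered reads, other scalings, a pseudocount of 0.1, a minimum mean of 20, each library left out and a replicate block. Every gene of the rule is named; of each further list, called members were named, at most 6 by smallest p, and others were named after their values were seen; 1 called regulator is not reported here. The members and lists were chosen with earlier results of these data known. Locations and lengths are from GENCODE M21 (mm10), promoters from RefSeq GRCm38.p6.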

Additional observations from a re-analysis of the deposited data

How the results depend on the processing

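The counts of class I and loading genes, 5 higher and 6 lower, depended on the scaling and the test. After rescaling on abundant genes (mean 100 or more), 1 was higher and 10 lower, and the log2 fold change became -0.097 for H2-K1, -0.00021 for H2-D1, -0.15 for Tap1, -0.092 for Tapbp, -0.14 for H2-M10.3 and -0.0046 for Pdia3. EdgeR with a filter gave 3 and 11, with H2-K1 at -0.0075, Tap1 at -0.064 and Tapbp at -0.0064, and limma-voom gave 3 and 11, with H2-K1 at -0.013, Tap1 at -0.072 and Tapbp at -0.016. DESeq2 gave 3 higher. H2-M10.3, a gene of a few reads, was -0.0078 with TMM in limma, -0.0067 with a pseudocount of 0.1 and -0.23 with edgeR unfiltered. The cause of these differences was not tested.

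Leaving out each library in turn gave 1 to 5 higher, 2 to 5 lower and 2914 to 4299 of all genes called, against 5577 with all libraries and 3261 with DESeq2. The log2 fold change then ranged from -0.039 to 0.13 for Tap1, -0.058 to 0.56 for H2-Q5, -0.70 to 0.72 for H2-M10.3, -1.1 to 1.0 for H2-Bl and -1.1 to 0.56 for H2-M2. H2-Q2, H2-T24 and Erap1 passed in the same direction in 14 of 14 alternatives.

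Same-numbered columns deviated together (correlation 0.214 over 8492 genes), but with 2 pairs the numbers do not establish a pairing. With a replicate block, 6 were called higher, H2-K1 among them (0.10), and 9 lower, H2-T22, H2-Q7 and H2-M3 among them.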

Other observations

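Of 15 genes with values on a list of class I receptors and their relatives, 3 rose and 2 fell, against 14.3% of all genes called higher and 7.00% called lower. Lilrb4a, an inhibitory receptor gene of the leukocyte immunoglobulin-like family whose product is known for binding an integrin rather than class I, had 1053 and 1050 normalized counts with dopamine, against 287 and 280 with PBS (log2 fold change 1.89, SE 0.10, adjusted p = 2.91e-20 by limma). Cd8a, a chain of the CD8 coreceptor that binds classical class I, had 116 and 103 with dopamine, against 30.6 and 24.5 with PBS (1.96, adjusted p = 2.01e-09), and Cd8b1, the other chain, had 93.3 and 103 with dopamine, against 76.4 and 70.5 with PBS (0.41, adjusted p = 0.106). Klra7, a Ly49 receptor gene, was at 13.9 and 13.6 with dopamine and 3.40 and 3.06 with PBS, a call that ended without dopamine A (log2 fold change 1.79) or dopamine B (1.82). Cd160 had 120 and 116 with dopamine, against 229 and 199 with PBS (-0.85, adjusted p = 1.07e-05). Pirb, a class I receptor of myeloid and B cells, was at 9.26 and 10.7 with dopamine and 35.7 and 23.8 with PBS (-1.46), and did not pass without PBS A (-1.18). Klrc1 and Klrd1, the chains of the Qa-1 receptor, had at most 9.26 in any library. Markers of myeloid cells fell and those of B cells rose between these groups, and their part was not tested.

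Of 12 class I-like genes outside the H2 region, 0 rose and 3 fell, against 14.3% and 7.00% of all genes, and DESeq2 called 0 of them but gave no adjusted p for Hfe and H60b. Most are scarce, and genes with a mean under 20 had a median log2 fold change of -0.52. The called genes were Ulbp1, a ligand of the NKG2D receptor (562 and 554 with dopamine, against 656 and 680 with PBS, log2 fold change -0.26), and the scarce H60b (-1.31) and Hfe (-2.19). None of the 3 passed without PBS A (-0.28, -1.49 and -1.43). Ulbp1 did not pass without dopamine A (-0.27), dopamine B (-0.25) or PBS B (-0.23) either, nor H60b without dopamine B (-0.96) or PBS B (-1.13). Between Tapbp and H2-M2 on chromosome 17, the 176 other genes with values included 37 called higher and 8 lower, against 14.3% and 7.00% of all genes, and their median change was 0.01 on the log2 scale. The 65 of them with a mean of 100 or more included 35 higher and 2 lower, with a median of 0.31. Of all genes that abundant, 39.1% were higher and 7.90% lower, with a median of 0.198. The 20 H2 class I genes had a median of -0.25, and 7 of them averaged under 20, where all genes had a median of -0.52. The 11 non-classical genes with a mean of at least 20 also had -0.25, and the 2 classical ones 0.15. These sets differ in abundance, and the difference between their medians was not tested.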
